A study of Mus musculus with 6 samples.

Results

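The 4 arrays of stimulated mouse embryonic stem cells, taken as one side, were compared with the 2 control arrays of the same cell line, so that all 6 arrays of the series were used. Members of the stimulated side were chosen by their titles: 2 arrays labelled GCSF and 2 labelled LIF/PD. All cells were of strain C57Bl/6 and carried GRgp-Y118F, a chimera that senses granulocyte colony-stimulating factor (GCSF) outside the cell and signals through a gp130 tail in which a tyrosine is changed to phenylalanine. Cells labelled GCSF were given that ligand for 1 h, and cells labelled LIF/PD were given leukaemia inhibitory factor (LIF) with 1 uM PD0325901, which blocks MEK, for 1 h. The design text adds a serum-free period of 6 h before treatment, and does not say whether the untreated control cells went through it. If they did not, serum withdrawal and stimulation cannot be told apart here. The labels describe 1 engineered line and name no clones or separate cultures, so p-values measure the spread between these arrays, which may be technical. The ligands were homemade according to the labels, and their doses are not given there.

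Both treatments act on gp130. When a ligand brings gp130 chains together, the JAK kinases bound to them phosphorylate the receptor, STAT3 docks on it, is itself phosphorylated, and enters the nucleus to bind target genes. Mouse embryonic stem cells depend on this route for self-renewal in LIF, and SOCS3, made from one of the first genes to respond, feeds back to silence the receptor. A separate branch leads from a gp130 tyrosine through SHP2 to ERK, a kinase that drives cells towards differentiation. SOCS3 docks on the same tyrosine. The Y118F change removes it, and PD0325901 stops the same branch at MEK.

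The label of the inhibitor did not match its readout, which is why the stimulated arrays were pooled. Dusp6, an ERK phosphatase gene that ERK itself switches on, had log2 intensities of 10.47 and 10.52 in the controls, 8.93 and 8.94 under the GCSF label, and 10.51 and 10.54 under LIF/PD. Inhibition of MEK would be read from low Dusp6, and the low values carried the GCSF label. Groups are therefore named by their labels throughout. Exchanging the stimulated labels would leave the pooled difference as it is and would only turn the sign of the difference between them.

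The response common to the stimulated arrays was a rise of a small set of genes. Of 16912 features tested with limma, 71 were higher and 15 lower in the stimulated arrays at an adjusted p under 0.05, which is 0.509% of the features in either direction, 0.42% higher and 0.0887% lower. In 65 of the 71 higher features every stimulated array lay above both controls, but in only 6 of the 15 lower features did every one lie below both. Over all features tested, called or not, 10.8% had all 4 stimulated arrays above both controls and 5.43% had all 4 below, so this separation alone was common. The 71 features included 61 with 1 gene symbol, which named 60 genes. Their rises ran from 0.20 to 2.88 log2 with a median of 0.43, and 1 feature, of Socs3, rose by at least 2-fold. The median change over all features tested was 0.01. Levels are of bulk RNA, so fewer responding cells and less RNA per cell cannot be told apart.

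These counts depend on how a common response is defined. With all 4 stimulated arrays treated as a single group, so that differences between the labels add to the residual, 6 features were higher and 0 lower (limma). At an unadjusted p under 0.05 the fit with 1 mean per label had 961 higher and 502 lower features, against 846 in all by chance. Requiring a change under each label, an alternative chosen after seeing the data, gave 9 higher and 0 lower. Without control replicate 1 or 2, which leaves a lone control assumed to vary like the other arrays, 26 and 25 features were higher and 8 and 7 lower. Without LIF/PD replicate 1 or 2 there were 37 and 46 higher and 9 and 10 lower. Of 47 called named features, 16 kept their call whichever array was left out: Socs3, Bcl3, Icam1, Dapp1, Gadd45g, Rhob, Klf4, Pim3, Tfap2c, Dact1, Klf5, Dusp1, Spry4, Egr1, Dusp6 and Rbpj. Each of the others lost it without at least 1 array.

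**Figure D1:**
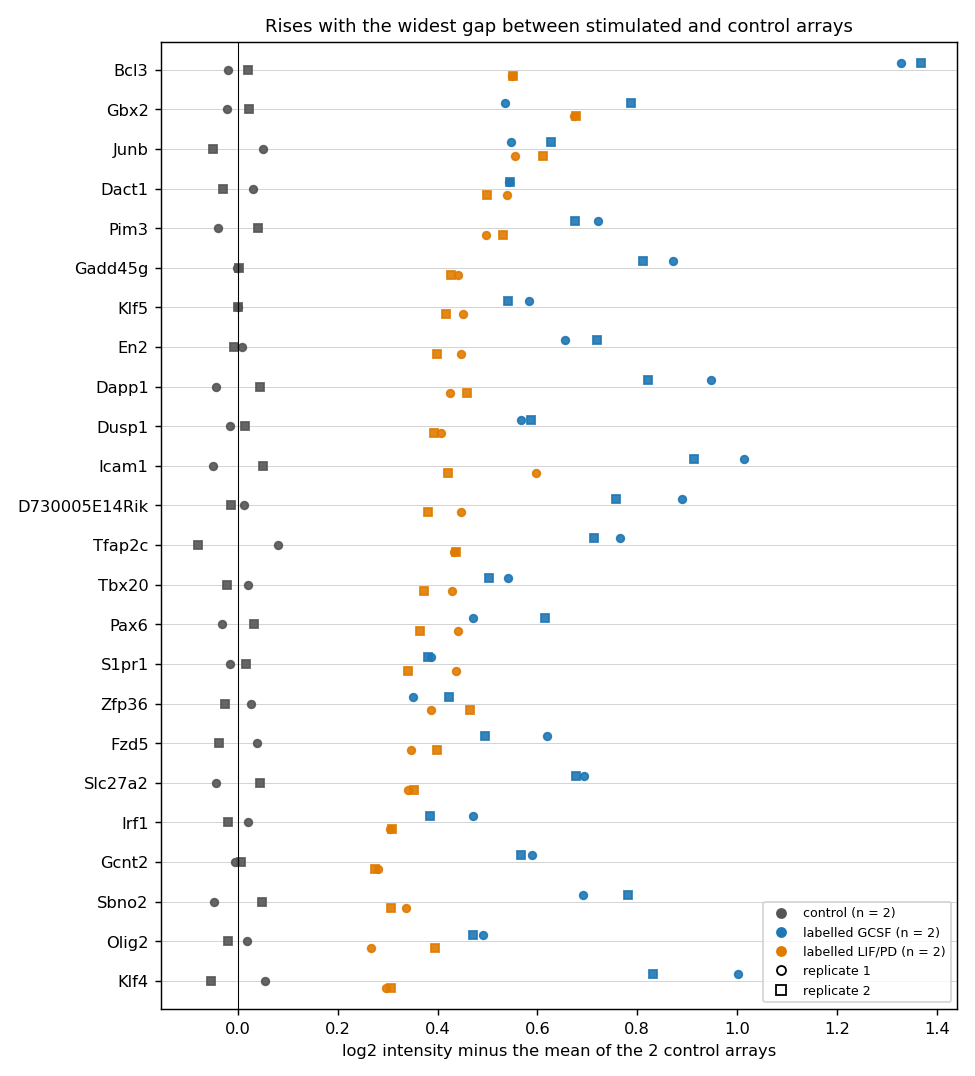
Log2 intensity minus the control mean on the x axis, for the 24 genes with the widest gap between the lowest stimulated array and the higher control, Socs3 left out because its rise of 2.88 is off this scale. Points are single arrays, coloured by label and shaped by replicate number; every stimulated point lies to the right of both control points, and Gbx2, Junb, Dact1 and Zfp36 have both labels at about the same place.

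Socs3, the feedback inhibitor of gp130 and JAK signalling, stood far above the other genes. Its log2 intensity was 7.77 and 7.73 in the controls, 10.79 and 10.98 under the GCSF label, and 10.42 and 10.32 under LIF/PD. Every stimulated array was at least 2.55 above the higher control. The pooled rise was 2.88 ± 0.06 (SE), or 7.35-fold (limma, adjusted p = 1.66e-07), and it passed in each of the alternatives tried. The rise was larger under the GCSF label, by 0.51 ± 0.07 (adjusted p = 0.0123). A second feature of Socs3, at 7.26 to 7.45 in the stimulated arrays and 0.26 or more below that in both controls, rose by 0.45 ± 0.07 (adjusted p = 0.0331), so the features differed in size but not in direction.

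Socs3, Pim3, Klf5, Gbx2, Junb and Dact1 were the 6 genes called when the stimulated arrays were treated as a single group, and all 6 were also called when a change was required under each label. Pim3, a serine/threonine kinase gene of the PIM family, read 9.17 and 9.25 in the controls against 9.93 and 9.89 labelled GCSF and 9.71 and 9.74 labelled LIF/PD. Its pooled rise was 0.61 ± 0.04 (adjusted p = 0.000369). Klf5, a Kruppel-like factor gene that supports the undifferentiated state, had 10.38 in each control and between 10.80 and 10.97 in the stimulated arrays, a rise of 0.50 ± 0.03 (adjusted p = 0.000322). Stimulated and control arrays of both genes were clearly apart, by 0.46 for Pim3 and 0.42 for Klf5. Those 2 genes and Socs3 were the ones, of 47 named features that were called, whose call was kept under each alternative tried, single arrays left out included.

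Gbx2, a homeobox gene that can sustain self-renewal when LIF is limiting, rose from 8.05 and 8.10 to 8.61 and 8.87 under GCSF and 8.75 and 8.75 under LIF/PD. The pooled rise was 0.67 ± 0.07 (adjusted p = 0.0044). Junb, which encodes an AP-1 subunit, went from 7.17 and 7.07 to 7.67, 7.75, 7.68 and 7.73, a rise of 0.58 ± 0.06 (adjusted p = 0.00445). Dact1, a modulator of WNT signalling, went from 8.10 and 8.04 to 8.62, 8.62, 8.61 and 8.57, a rise of 0.53 ± 0.05 (adjusted p = 0.00186). Arrays of the 2 labels overlapped for Gbx2 and Junb and lay close together for Dact1, and all stayed at least 0.47 above the controls. Labelled LIF/PD minus labelled GCSF was 0.01 for Gbx2 (95% interval -0.17 to 0.20), -0.00 for Junb (-0.17 to 0.16) and -0.02 for Dact1 (-0.15 to 0.10), so label differences larger than these bounds lie outside the intervals. Gbx2 lost its call without control replicate 1 and without control replicate 2, Junb lost it without control replicate 2, and Gbx2, Junb and Dact1 each lost it in a test against a 1.2-fold change.

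Bcl3, Gadd45g and Dusp1 also rose in every stimulated array and passed when a change was required under each label. Bcl3, a nuclear IkB protein gene, had the next widest gap after Socs3. It read 8.40 and 8.44 in the controls, 9.75 and 9.79 labelled GCSF and 8.97 in each array labelled LIF/PD, a pooled rise of 0.95 ± 0.04 (adjusted p = 4.28e-05). The label difference of -0.80 ± 0.05 (adjusted p = 0.000153) was almost as large as the pooled rise. Gadd45g, a growth arrest gene, rose by 0.64 ± 0.05 (adjusted p = 0.000621) from 8.03 in each control to 8.90, 8.84, 8.47 and 8.46. Dusp1, a MAP kinase phosphatase gene, rose by 0.49 ± 0.03 (adjusted p = 0.000322) from 10.28 and 10.31 to 10.86, 10.88, 10.70 and 10.69. All of these were higher under the GCSF label, and the label difference was called for Bcl3 and Gadd45g but not for Dusp1 (-0.18 ± 0.03, adjusted p = 0.0702).

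The amplitude of the rise differed between the labels for many genes. Of the 71 higher features, 68 had the higher mean under the GCSF label and 3 under LIF/PD. The difference was called for 38 of the 71, each time with the larger rise under GCSF, beside 0.846% of all features with a called label difference, 0.443% with LIF/PD lower and 0.402% with LIF/PD higher. In the other 33 the difference was not called, and all 33 had stimulated and control arrays apart. A difference that misses the threshold does not show equal rises: Pim3 differed by -0.18 with an interval of -0.29 to -0.08. The control block of each array, features without a gene, had a median of 6.84 in GCSF replicate 1 and 6.58 to 6.71 in the other 5 arrays. With that median as a covariate 59 features were higher and 16 lower, and 19 of these called features differed between labels, against 38 of the higher and 13 of the lower features without it; its part in the label differences was not tested further.

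**Figure D2:**
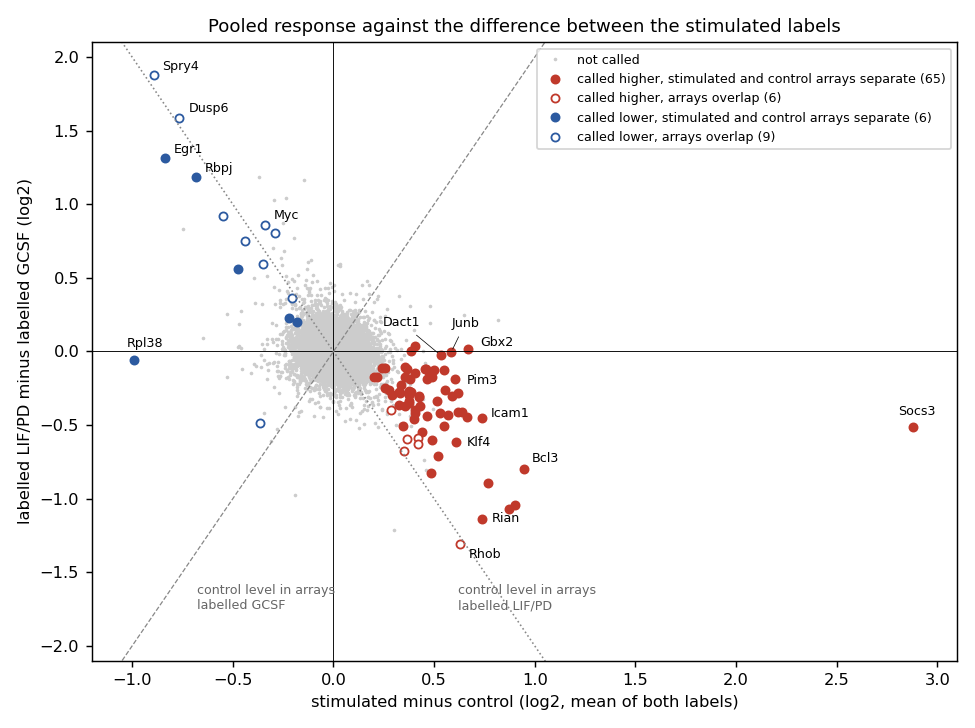
Each point is 1 of 16912 features, with the pooled difference (stimulated minus control, log2) on the x axis and labelled LIF/PD minus labelled GCSF (log2) on the y axis; filled points are called with stimulated and control arrays apart (65 higher, 6 lower) and open ones called with overlap (6 and 9). On the dotted line the arrays labelled LIF/PD sit at the control level, on the dashed line those labelled GCSF; most rises lie below the horizontal axis, with 3 slightly above it, while Spry4, Dusp6 and Myc lie along the dotted line.

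Promoter windows of the higher genes were searched for STAT-type sites, since the members rose together. RefSeq windows of the GRCm38.p6 build, from 250 bases before to 50 after each start, were found for 52 of the 60 genes. The letters TTCNNNGAA, which read the same on both strands, were in a window of 12 of the 52 genes (23.1%), beside 7.94% of 10305 tested genes with a window and 9.55% of all 27025 genes in the table. The stricter TTCCNGGAA, which is contained in the former, was in 3 of 52 (5.77%: Icam1, Sbno2 and Helb) beside 1.48% of tested genes. Among the 26 genes with a window and a higher feature not called different between labels, 4 (15.4%) held TTCNNNGAA and 0 the stricter form. Socs3 is 1 of these 4 only through its second feature, as the label difference of its main feature was called. Of 7 lower genes with a window, 1 held TTCNNNGAA (Tgif1). A match is a description of letters and not a binding site. Of the 52 higher genes with a window, 46 stood above both controls in every stimulated array, and so did all 12 genes with these letters. Windows are shown for the 4 of them that are also in the list of STAT3 feedback and target genes, Socs3, Icam1, Irf1 and Zfp36; capitals mark TTCNNNGAA, whose first base had offsets of -154, -42, -90 and -17 from the start.
Socs3 (chr11:117969317-117969616, strand -): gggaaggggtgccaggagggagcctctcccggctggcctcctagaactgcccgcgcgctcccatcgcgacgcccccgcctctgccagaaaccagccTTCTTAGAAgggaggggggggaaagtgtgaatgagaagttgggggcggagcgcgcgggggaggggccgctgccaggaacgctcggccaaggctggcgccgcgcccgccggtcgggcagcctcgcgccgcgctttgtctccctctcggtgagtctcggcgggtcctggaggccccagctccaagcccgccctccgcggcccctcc
Icam1 (chr9:21015690-21015989, strand +): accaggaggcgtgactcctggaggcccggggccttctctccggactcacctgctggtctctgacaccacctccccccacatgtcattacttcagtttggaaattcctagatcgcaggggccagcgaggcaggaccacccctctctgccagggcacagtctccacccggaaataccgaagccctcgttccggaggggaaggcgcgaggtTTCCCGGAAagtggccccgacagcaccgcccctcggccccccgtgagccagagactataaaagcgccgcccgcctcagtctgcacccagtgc
Irf1 (chr11:53769764-53770063, strand +): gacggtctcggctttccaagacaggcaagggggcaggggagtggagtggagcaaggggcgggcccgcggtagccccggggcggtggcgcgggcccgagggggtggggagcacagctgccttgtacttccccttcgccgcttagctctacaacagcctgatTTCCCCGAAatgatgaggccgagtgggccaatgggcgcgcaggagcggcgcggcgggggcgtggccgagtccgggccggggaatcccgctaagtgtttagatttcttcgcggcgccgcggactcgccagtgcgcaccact
Zfp36 (chr7:28379179-28379478, strand -): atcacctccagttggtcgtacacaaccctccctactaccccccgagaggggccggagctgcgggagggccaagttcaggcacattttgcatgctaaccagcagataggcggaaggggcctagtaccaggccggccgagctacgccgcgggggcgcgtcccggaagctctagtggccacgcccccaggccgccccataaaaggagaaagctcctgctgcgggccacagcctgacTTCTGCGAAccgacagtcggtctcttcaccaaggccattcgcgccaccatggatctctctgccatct

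Icam1, the adhesion receptor gene whose window holds the stricter letters, read 8.25 and 8.35 in the controls, 9.31 and 9.21 labelled GCSF, and 8.89 and 8.72 labelled LIF/PD. It rose by 0.74 ± 0.06 (adjusted p = 0.00166), with no overlap. Irf1, an interferon regulatory factor gene, went from 8.52 and 8.48 to 8.97, 8.89, 8.81 and 8.81, a rise of 0.37 ± 0.05 (adjusted p = 0.0111), although its other feature did not pass (0.03 ± 0.07). Zfp36, whose protein speeds decay of AU-rich mRNAs, went from 7.70 and 7.64 to between 8.02 and 8.13, a rise of 0.41 ± 0.06 (adjusted p = 0.0167). Leaving out single arrays kept the call of Irf1 in 2 of 6 fits and that of Zfp36 in 1 of 6, and both lost it without either control. The arrays labelled GCSF and LIF/PD overlapped for Zfp36, with a label difference of 0.04 (95% interval -0.11 to 0.18).

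Of the gene lists, STAT3 feedback and target genes had the largest share of members that rose. The lists were chosen with earlier results of these data known, so this share is not independent of them. Of 30 tested, 13 were higher and 0 lower (43.3%, beside 0.456% higher and 0.0618% lower over 12949 genes), 18 had every stimulated array above both controls (60%, beside 11.9%), and the median change was 0.20 against 0.01. Besides the genes above they included Osmr, the oncostatin M receptor (0.38 ± 0.05), Irf9, an interferon regulatory factor gene (0.37 ± 0.05), and Gadd45b (0.32 ± 0.05, adjusted p = 0.0392), whose calls were kept in 2, 3 and 1 of 6 fits that left out an array. Stat3 itself went from 9.67 and 9.58 to 10.27, 10.20, 9.87 and 9.87, a rise of 0.43 ± 0.04 (adjusted p = 0.00288) without overlap, and lost its call without control replicate 2. The members that did not pass included Pim1 (0.02 ± 0.05), the negative regulators Cish (0.24 ± 0.09) and Socs2 (0.14 ± 0.04), and Fos (-0.16 ± 0.08). The stimulated arrays of Pim1 overlapped the controls, whereas those of its relative Pim3 did not.

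In the JAK-STAT pathway itself, 3 of 33 tested components rose (9.09%, beside 0.456% over 12949 genes) and 0 fell. The components that rose were Socs3, Stat3 and Osmr, which are also in the STAT3 list above. All stimulated arrays lay above both controls in 10 components (30.3%, beside 11.9%). Of the receptor chains, Lifr, the LIF receptor, changed by 0.24 ± 0.05 (adjusted p = 0.115) and Il6st, which encodes gp130, by 0.07 ± 0.03 (adjusted p = 0.562). Csf3r, the native GCSF receptor, lay below the intensity filter, at 5.72 to 5.97 in all 6 arrays, and was not tested. Stat2 changed by 0.22 ± 0.05 (adjusted p = 0.163), with 0.40 under the GCSF label and 0.05 under LIF/PD. Its stimulated and control arrays overlapped, and its label difference was called.

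Genes listed as LIF-responsive pluripotency genes rose in 4 of 17 cases and fell in 1. The shares were 23.5% and 5.88%, beside 0.456% and 0.0618% over 12949 genes. All stimulated arrays lay above both controls in 9 of 17 (52.9%, beside 11.9%), and the median change was 0.06. Those that rose were Gbx2, Klf5, Klf4 and Mycn. Klf4, the Kruppel-like factor gene used in reprogramming, read 9.19 and 9.09 in the controls, 10.14 and 9.97 labelled GCSF and 9.44 and 9.45 labelled LIF/PD; it rose by 0.61 ± 0.05 (adjusted p = 0.00221) and differed between labels by -0.62 ± 0.06 (adjusted p = 0.00387). Mycn rose by 0.35 ± 0.04 (adjusted p = 0.00427), from 10.43 and 10.52 to between 10.75 and 10.91, and the label difference was not called (-0.11 ± 0.04). Its call was lost without control replicate 1. Myc, its close relative, was called lower, but only the arrays labelled GCSF were low, as given below. Tbx3 (0.22 ± 0.04, adjusted p = 0.0834) and Sall4 (0.16 ± 0.03, adjusted p = 0.0834) lay above both controls in all stimulated arrays and did not pass, and Tfcp2l1 stood at 0.06 ± 0.03 (adjusted p = 0.64).

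Core pluripotency genes showed small differences. Of 23 tested, 2 rose (8.7%, beside 0.456%) and 0 fell: Tdgf1, a co-receptor for Nodal, by 0.21 ± 0.03 (adjusted p = 0.0097), and Fgf4, the ligand that drives ERK in these cells, by 0.20 ± 0.03 (adjusted p = 0.0192). Both calls were lost without either control and without either array labelled LIF/PD. All stimulated arrays lay above both controls in 9 of the 23 (39.1%, beside 11.9%), 10 passed an unadjusted p of 0.05, and the median change was 0.03. No call was made for Esrrb (0.03 ± 0.03), Nanog (0.06 ± 0.03), Pou5f1 (-0.04 ± 0.03) or Sox2 (0.11 ± 0.03). All 10 markers fixed for embryonic stem cells were above the intensity filter. Of these, Klf4 and Tdgf1 passed.

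Immediate early genes, which respond to growth factors within minutes, split in direction. Of 33 tested, 12 rose and 2 fell (36.4% and 6.06%, beside 0.456% and 0.0618% over 12949 genes), with a median of 0.14. The STAT3 list above also holds Junb, Zfp36 and Dusp1. Junb, Zfp36, Dusp1, Atf3 (0.44 ± 0.06), Fosl2 (0.37 ± 0.06) and the kinase genes Sgk1 (0.36 ± 0.04) and Plk2 (0.33 ± 0.04) were above both controls in all 4 stimulated arrays. The gap was only 0.06 for Atf3 and 0.10 for Fosl2. Atf3 rose by 0.71 under the GCSF label and 0.17 under LIF/PD, a label difference that was called. Rhob, Jun, Ccn1, Btg2 and Klf6 were called higher although their arrays labelled LIF/PD overlapped the controls. Atf3 and Klf6 lost their call whichever array was left out, and Jun, Ccn1, Fosl2 and Plk2 kept it in 1 of 6 such fits. Rhob, a small GTPase gene, shows this most: it read 8.16 and 8.04 in the controls, 9.44 and 9.32 labelled GCSF, and 8.11 and 8.04 labelled LIF/PD. Its pooled value of 0.63 ± 0.06 (adjusted p = 0.00244) is thus an average of 1.28 under the GCSF label and -0.02 under LIF/PD. Egr1 and Myc were the 2 that fell, and both are also in the list of ERK feedback genes.

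Rises outside these lists were of mixed kinds. Rian, a noncoding RNA of the Dlk1-Dio3 imprinted region, went from 6.91 and 6.87 to 8.16, 8.23, 6.95 and 7.17; the pooled rise was 0.74 ± 0.07 (adjusted p = 0.00343), with a gap of only 0.04 to the controls because the arrays labelled LIF/PD were close to them. Dapp1, an adaptor for phosphoinositide signalling, rose by 0.66 ± 0.05 (adjusted p = 0.00153) and stood at least 0.38 above the controls in every stimulated array. Tfap2c, an AP-2 factor gene of trophoblast and germ cells, went from 9.32 and 9.16 to 10.00, 9.95, 9.67 and 9.67, a rise of 0.59 ± 0.05 (adjusted p = 0.00157). Fgf10 (0.57 ± 0.07, adjusted p = 0.0111), the homeobox gene En2 (0.55 ± 0.06, adjusted p = 0.00491), Pax6 (0.47 ± 0.06, adjusted p = 0.0124) and the hexokinase gene Hk2 (0.38 ± 0.05, adjusted p = 0.01) rose in all stimulated arrays as well. Controls read 7.11 and 6.94 for Fgf10 and 6.86 and 6.85 for En2, close to the intensity filter of 6.70. Fgf10, En2, Pax6 and Hk2 each lost their call in the test against a 1.2-fold change. D730005E14Rik rose by 0.62 ± 0.06 (adjusted p = 0.00312) on 1 feature, and its other feature did not pass (0.10 ± 0.06). S1pr1, the sphingosine 1-phosphate receptor gene, and Tbx20 and Fzd5, singled out after their values were seen, rose by 0.39 ± 0.06, 0.46 ± 0.06 and 0.46 ± 0.05, each with a label difference that was not called.

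**Figure D3:**
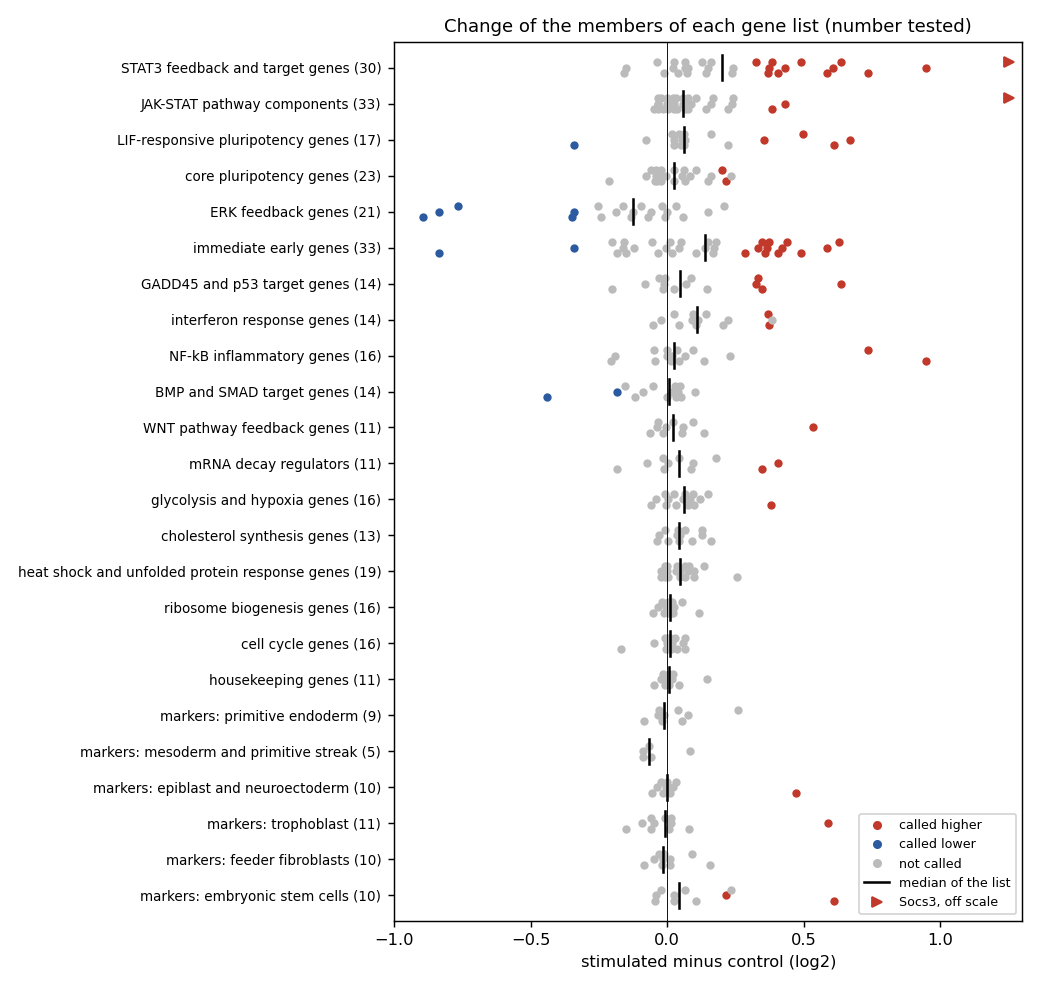
Pooled log2 difference (stimulated minus control) of each tested member of 24 gene lists; red points were called higher, blue lower and grey not called, and the bar is the list's median. Red points are most frequent among STAT3 feedback and target genes (13 of 30) and immediate early genes (12 of 33), blue ones among ERK feedback genes (5 of 21). Over 12949 genes 0.456% were called higher and 0.0618% lower. The lists were chosen with earlier results of these data known and share members.

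The remaining lists gave small numbers of calls, to be read beside 0.456% higher and 0.0618% lower over 12949 genes. Several of the genes called here are also in lists above. GADD45 and p53 target genes rose in 4 of 14 cases (28.6%), through Gadd45g, Gadd45b, Btg2 and Plk2. Interferon response genes rose in 2 of 14 (14.3%, Irf1 and Irf9), and NF-kB genes in 2 of 16 (12.5%, Bcl3 and Icam1). Regulators of mRNA decay rose in 2 of 11 (18.2%, Zfp36 and Btg2). WNT feedback genes rose in 1 of 11 (9.09%, Dact1) and glycolysis genes in 1 of 16 (6.25%, Hk2). Of 14 BMP and SMAD target genes 2 fell (14.3%), Id3 and Tgif1. With limma, 0 members passed in the lists for cholesterol synthesis (4 of 13 at an unadjusted p under 0.05), heat shock and the unfolded protein response (2 of 19), ribosome biogenesis (1 of 16), cell cycle (1 of 16) and housekeeping (1 of 11). Medians of these lists lay between 0.01 and 0.05.

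Markers of other cell types were measured beside these changes. Of the lists for primitive endoderm, mesoderm, feeder fibroblasts, epiblast and neuroectoderm, and trophoblast, 9, 5, 10, 10 and 11 members were tested. Pax6 and Tfap2c rose and the others did not pass. The medians were -0.01, -0.07, -0.01, -0.00 and -0.01. The mean log2 level of the fibroblast list was 10.19 to 10.20 in the controls and 10.20 to 10.21 in the stimulated arrays, and that of the mesoderm list 7.52 to 7.53 and 7.44 to 7.53.

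Most falls in the pooled comparison were not common to the stimulated arrays. Of 15 lower features, 13 differed between labels, 12 with the lower values under GCSF and 1, of U2af1, under LIF/PD. The list of ERK feedback genes, which also holds Egr1, a gene that ERK induces, gave 5 of these falls among 21 tested. That is 23.8%, beside 0.0618% over 12949 genes, with 0 rises and a median of -0.13. Spry4, which encodes an inhibitor of receptor tyrosine kinase signalling, read 9.97 and 10.04 in the controls, 8.12 and 8.22 labelled GCSF, and 10.12 and 9.98 labelled LIF/PD. Its pooled difference was -0.89 ± 0.05 (adjusted p = 0.000296), yet the arrays labelled LIF/PD overlapped the controls. Dusp6 (-0.77 ± 0.03, adjusted p = 4.28e-05), Myc (-0.34 ± 0.04, adjusted p = 0.00627) and the ephrin receptor gene Epha2 (-0.35 ± 0.05, adjusted p = 0.0142) were likewise low under the GCSF label, without all arrays labelled LIF/PD being below the controls, as were Id3, a BMP target gene (-0.44 ± 0.06), and the chemokine gene Ccl7 (-0.29 ± 0.03).

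Egr1, a zinc finger gene that ERK induces, was the called member of the ERK feedback list in which all stimulated arrays lay below both controls. It read 8.49 and 8.38 in the controls, 6.98 and 6.90 labelled GCSF, and 8.34 and 8.17 labelled LIF/PD, so that the highest stimulated array lay 0.05 below the lower control. The pooled difference was -0.84 ± 0.07 (adjusted p = 0.00132), made of -1.49 and -0.18 under the 2 labels. Tgif1, a SMAD corepressor gene, was lower by 0.18 on the log2 scale (-0.18 ± 0.03, adjusted p = 0.0488), at 11.70 in each control, 11.45 and 11.38 labelled GCSF, and 11.63 and 11.61 labelled LIF/PD. This call was kept in 1 of 6 fits that left out an array, the one without GCSF replicate 1. A feature without a gene symbol had -0.48 ± 0.05 (adjusted p = 0.00386) with the stimulated arrays at least 0.16 below the controls. It stood at -0.75 under the GCSF label and -0.20 under LIF/PD, and its label difference was called. Rbpj, the DNA-binding factor of the Notch pathway, was lower by 0.68 on 1 feature (-0.68 ± 0.05), with a gap of 0.01, while its other feature stood at -0.02 ± 0.03. The pooled value of the first Rbpj feature was made of -1.28 under the GCSF label and -0.09 under LIF/PD, and that label difference was called.

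Rpl38, a ribosomal protein gene, was the one lower gene with a wide gap. One feature read 12.41 and 11.94 in the controls and 11.09, 11.32, 11.37 and 10.93 in the stimulated arrays. The difference was -0.99 ± 0.15 (adjusted p = 0.0265), without overlap and with no called label difference (-0.06, 95% interval -0.44 to 0.33). The controls differed more from each other than in the other named features, and 3 other features of Rpl38 stood at -0.07 to -0.01 and did not pass. Its call was lost without control replicate 1, without either GCSF replicate and without LIF/PD replicate 2. U2af1, a splicing factor gene that the rule for named genes left out, was lower under LIF/PD, at 8.97 and 8.91 against 9.61 and 9.50 in the controls and 9.51 and 9.35 labelled GCSF.

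**Figure D4:**
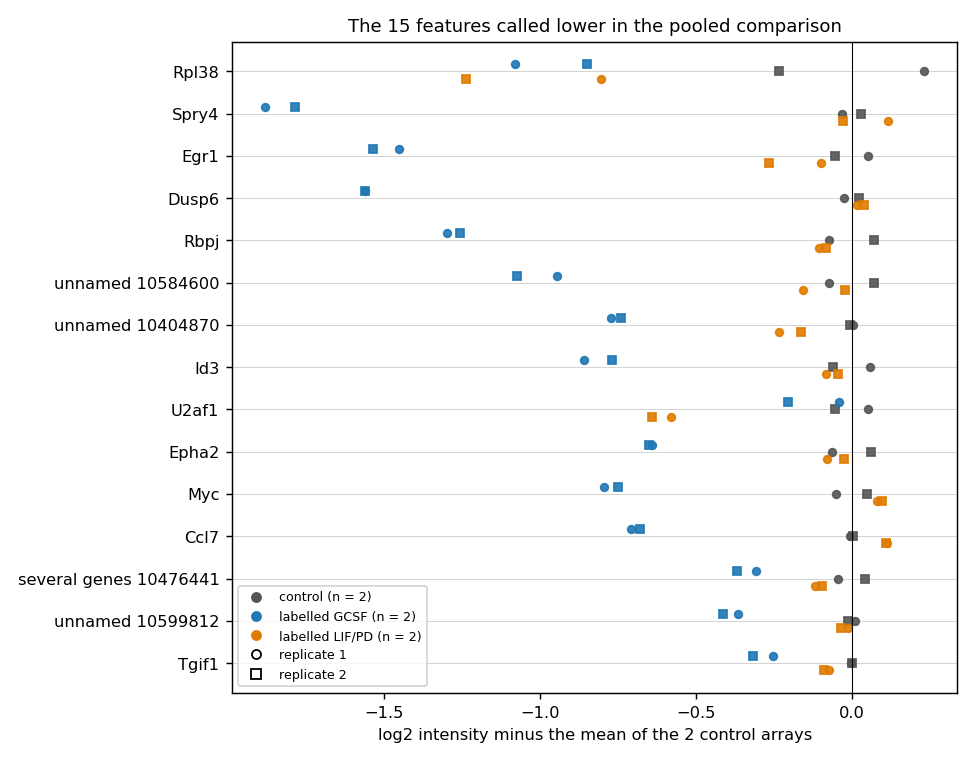
Log2 intensity minus the control mean on the x axis for the 15 features called lower, with 1 point per array, coloured by label and shaped by replicate number. In Spry4, Dusp6 and Myc the arrays labelled LIF/PD sit at the control points and those labelled GCSF far to the left; Rpl38 has all 4 stimulated arrays to the left, and U2af1 those labelled LIF/PD.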

How the data were processed

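Biotin-labelled total RNA of 6 samples was measured on 1-colour expression arrays, per the labels' protocols. The authors deposited 1 table of 34760 features, whose values, never negative and with array medians of 7.11 to 7.16, were read as log2 intensity; the log base, background correction and normalization are not given in the sources used here, and nothing was normalized again. There is no read depth; the number of arrays limits precision. The platform annotation gave 1 symbol to 21640 features and several to 1321. The first 6573 features, which have no gene, were treated as a control block and left out. Tests covered features whose mean reached the 40th percentile of the rest (6.70).

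limma 3.58.1 in R 4.3.3 fitted 1 mean per label to all 6 arrays with an intensity trend (3 residual and 8.4 total degrees of freedom). The pooled contrast was the mean of both stimulated labels minus control, with two-sided p-values adjusted by Benjamini-Hochberg over 16912 features. The fit was tested on simulated data. Values after ± are standard errors. Gene lists used each gene's feature with the highest mean and were given as counts, with no test. The rule for named genes took called features with arrays apart (14 by largest rise, 10 by largest fall, 6 in each direction by widest gap), called members of 5 main lists, up to 3 of each other list, and a fixed set of genes whatever their value; features with the smallest p filled the falls up to 10. Cish, Socs2, Stat2, Sall4, U2af1, S1pr1, Tbx20, Fzd5, and Sbno2 and Helb in the promoter search, fell outside it and were chosen after their values were seen. Members and lists were chosen with earlier results of these data known.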

Additional observations from a re-analysis of the deposited data

Results flagged for a closer look

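Among 57 named features examined, 1 had a stimulated array set apart from the other 3: the second array labelled LIF/PD read 8.57 for Dact1, below 8.61 in the nearest array, because the other 3 lay between 8.61 and 8.62. A gap of this kind arises by chance in about 1 in 20 groups. The array still lay 0.47 above the higher control.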

How the results depend on the processing

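Pooled calls depended on each control and on how label differences were treated, and no called value of the named genes changed sign (0 reversed). The main counts were 71 higher (65 with arrays apart), 15 lower (6 apart), and 38 and 13 of these with a called label difference. With the stimulated arrays as a single group they were 6 higher (6 apart) and 0 lower (0 apart). Requiring a change under each label, chosen after seeing the data, gave 9 higher (9 apart), 0 lower (0 apart) and 3 with a label difference. A test against 1.2-fold gave 11 higher (11 apart), 4 lower (2 apart) and 8. Without an intensity trend there were 48 higher (47 apart), 9 lower (3 apart) and 25 with a label difference, and with the control block median as covariate 19. Leaving out single arrays gave 25 to 60 higher (24 to 58 apart), 7 to 20 lower (3 to 9 apart) and 15 to 31 with a label difference; where an arm kept 1 array, that array was assumed to vary like the others. Of 47 called named features 16 kept their call whichever array was left out, and 28 lost it without control replicate 2. The replicate block gave 66 higher and 16 lower, of which 64 and 13 were also called without the block. Correlations of same-numbered deviations were small, at 0.0071, 0.084 and 0.099. With 2 replicates per label they cannot tell whether arrays with one number share a culture or a batch. Filter, quantile normalization, median centring, robust moderation and the handling of several features per gene kept the higher count between 62 and 75. With 2 controls, precision rests on a spread pooled over 6 arrays.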
